A study of Rattus norvegicus with 5 samples.

Results

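RNA from the whole, unselected population of transfected fetal rat hypothalamic cells (GFP+/-) was compared with RNA from non-transfected cells (NT), which are 3 of the 5 arrays of the series. The comparison used the 2 arrays titled as the total cell population and the single array titled as non-transfected. The remaining 2 arrays hold sorted GFP+ cells and are given beside some results only. All cells were primary cultures of hypothalamus taken from Wistar rats at embryonic day 17. GFP+/- cultures received, 24 h after seeding, a plasmid with the green fluorescent protein (GFP) gene under a minimal Trh promoter, carried by the polymer polyethylenimine. Trh encodes the precursor of thyrotropin-releasing hormone (TRH). These cells were taken 48 h after transfection, trypsinized and passed through the cell sorter without a gate. The population holds both GFP+ and GFP- cells. In the paper GFP+ cells were a very small share of transfected cultures, so nearly all of this population was GFP-. NT cells were not transfected and were taken at 3 days in vitro. The sources used here do not say whether they received the polymer alone, were trypsinized or passed through the sorter. Transfection and passage through the sorter therefore cannot be told apart in this comparison. Either population was a pool of 3 independent experiments.

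The labels call the 2 GFP+/- arrays biological replicates, whereas the methods describe 2 aliquots of 1 RNA pool, so the p-values below measure the spread between arrays. Every value is a MAS 5.0 signal, the relative brightness of 1 probe set on an Affymetrix rat array, and signals of different probe sets cannot be set against each other as levels. A log2 difference is the mean of the 2 GFP+/- log2 signals minus the NT log2 signal. A probe set was counted as higher or lower where this difference passed 2-fold with both GFP+/- arrays on that side of NT. "Rose" and "fell" are kept for an adjusted p under 0.05 by limma, which pooled the spread over all 5 arrays and assumed that the lone NT array varies like the others. Where a gene had several probe sets, the brightest stands for it.

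Cultures of fetal hypothalamus hold neurons, astrocytes and their precursors, and cells of the meninges and vessels that come with the tissue. Cells that take up foreign DNA or are injured can switch on interferon-stimulated genes, whose products act against viruses, and acute phase genes, which are driven by cytokines. Neurofilaments, synaptic receptors and neuropeptide precursors are classes of transcript that mark maturing neurons. In the NT array some markers of neurons were bright, with signals of 16664 for Stmn1 and 10041 for Mapt, and so was Vim of glia and mesenchyme at 10280. Other neuronal markers read low there, such as Syn1 at 126 and Syt1 at 15.0. Stmn1 is also counted among the cell cycle genes here. Trh itself was dim on all 3 arrays, with 109 and 106 in GFP+/- and 96.6 in NT.

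Of 8740 probe sets, 952 (10.9%) were over 2-fold higher in GFP+/- and 1410 (16.1%) over 2-fold lower. By limma, 367 (4.2%) rose and 440 (5.03%) fell. Over 4734 genes the 2-fold rule counted 508 higher (10.7%) and 688 lower (14.5%), and limma 215 higher (4.54%) and 252 lower (5.32%). The 2-fold shares of genes are the ones to set beside the 2-fold count of every list below, and the limma shares beside its limma count. Both GFP+/- arrays lay above NT for 38.0% of genes and below it for 42.2%. The limma calls rest on the pooled spread: 2 probe sets passed when the spread was not allowed to follow signal, and 1, that of Lcn2, when either GFP+/- array was left out.

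Precision followed brightness. The 2 GFP+/- arrays lay over 2-fold apart for 13.2% of all probe sets but for 0.944% of the 3496 in the brightest 40%, which are called bright here. Among these bright probe sets, 432 were over 2-fold higher and 456 over 2-fold lower. RNA quality differed with the populations. The ratio of 3' to 5' signal of the Gapdh control, which grows when RNA is degraded or copied incompletely, was 12.7 and 14.2 in GFP+/- and 5.45 in NT. All 9 hybridization controls, bacterial transcripts added to the labelled sample, were brighter on both GFP+/- arrays, by a median log2 difference of 1.27 (range 1.09 to 1.80). The part of these differences in the results below was not tested.

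**Figure D1:**
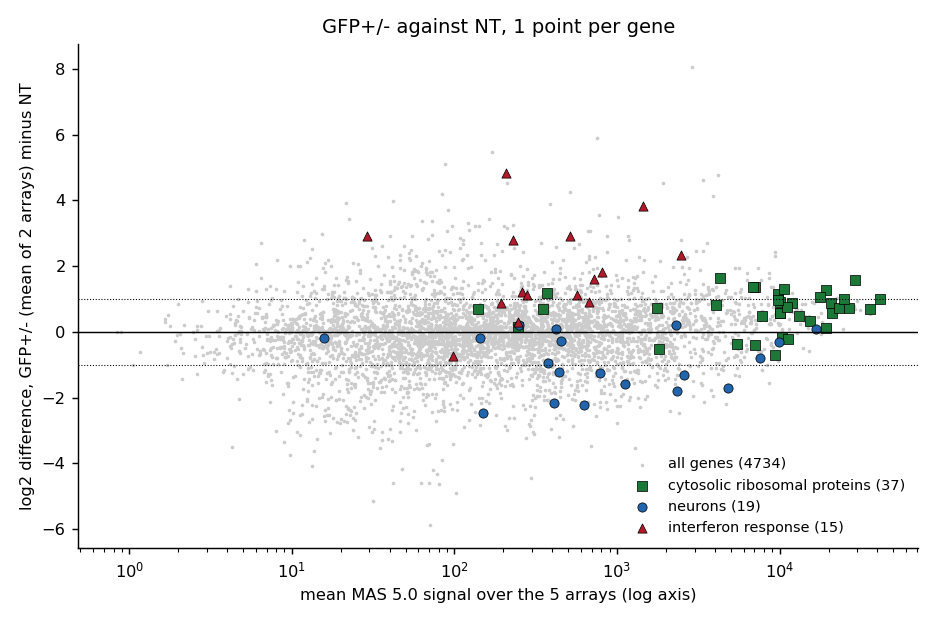
Log2 difference of GFP+/- (mean of 2 arrays) minus NT (1 array) against the mean signal over all 5 arrays on a log axis, with 1 point per gene for 4734 genes. Interferon response genes (triangles) lie mostly above the upper 2-fold line (dotted), neuronal markers (circles) at or below 0.22, and ribosomal protein genes (squares) mostly above 0 at high signal.

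Interferon-stimulated genes were mostly higher in GFP+/-. Of 15 members measured, 11 were over 2-fold higher in GFP+/- and 0 lower, beside 10.7% and 14.5% of all genes. The median log2 difference was 1.60, against -0.05 over all genes, with 1.68 on the first GFP+/- array and 1.52 on the second, and 1.15 with 16 added to each signal. Both GFP+/- arrays lay above NT for 14 of the 15, Adar being the exception at 92.3 and 68.1 against 133.

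By role, the list runs from transcription factors to effectors. Irf7, a transcription factor that amplifies interferon induction, read 217 and 175 in GFP+/- and 28.2 in NT, a log2 difference of 2.78 (SE 0.52, adjusted p = 0.0330 by limma). Irf1, a related factor, read 760 and 797 against 223 and rose by 1.81 (SE 0.22, adjusted p = 0.0149). For both genes the GFP+/- arrays lay close together and far above NT. A second, dim probe set of Irf7 read 15.3 and 17.1 against 35.8. Stat2, which carries the interferon signal into the nucleus, read 201 and 221 against 170 and did not pass (adjusted p = 0.642).

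Among the effectors, Rsad2 (viperin, an antiviral enzyme) read 619 and 1098 in GFP+/- and 58.3 in NT and rose by 3.82 on the log2 scale (SE 0.62). Its other bright probe set went the other way without passing, at 82.9 and 154 against 167. Gbp2, a GTPase induced by interferon, read 129 and 124 against an NT signal of 4.48. With 16 added to each signal, the Gbp2 difference dropped from 4.82 to 2.80 and its adjusted p was 0.0728, so its size hangs on a signal near background. Ifitm3, a membrane protein that blocks viral entry, was bright in all 3 arrays, with 3513 and 3200 against 664, and rose by 2.34 (SE 0.23, adjusted p = 0.0109). Oas1a, an enzyme that senses double-stranded RNA and sits at the median of the list, read 757 and 675 against 236 and rose by 1.60. Mx1 and Mx2, GTPases that trap viral particles, were over 2-fold higher without passing limma: Mx1 read 138 and 136 against 59.0, and Mx2 428 and 408 against 192. The chemokine gene Cxcl10 was near these at 101 and 141 against 55.3, also without passing. Eif2ak2, the kinase that halts translation on double-stranded RNA, was 617 and 734 against 356, short of 2-fold.

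Promoters of these genes were read because the members moved together. RefSeq promoters (build GRCr8, 250 bases before to 50 after the start) were matched for 13 of the 15 genes. The core of the interferon-stimulated response element, spelled GAAANNGAA and searched on both strands, was found in 9 of the 13 (69.2%) and in 3251 of all 33469 promoters (9.71%). Of the 9 genes with a match, 7 were over 2-fold higher in GFP+/-, as were 3 of the 4 without one. The stretches around the match are shown for 6 of these genes, those with the largest differences on bright probe sets and Eif2ak2, which stayed within 2-fold, 5' to 3' on the strand of the gene, all ahead of the start, with the match in capitals. The pair in Oas1a consists of 2 matches that overlap, and matches read on the opposite strand appear as their reverse complement.
Irf7: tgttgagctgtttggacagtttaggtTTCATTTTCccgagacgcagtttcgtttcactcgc
Rsad2: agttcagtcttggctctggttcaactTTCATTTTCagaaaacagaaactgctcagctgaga
Gbp2: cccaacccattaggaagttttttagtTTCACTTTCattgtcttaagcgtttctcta
Ifitm3: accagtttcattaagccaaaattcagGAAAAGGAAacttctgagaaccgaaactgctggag
Oas1a: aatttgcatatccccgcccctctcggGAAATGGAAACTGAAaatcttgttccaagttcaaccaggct
Eif2ak2: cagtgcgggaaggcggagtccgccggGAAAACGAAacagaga
They lie at chr1:205800057-205800117 on the minus strand (Irf7), chr6:48788232-48788292 on the minus strand (Rsad2), chr2:234005671-234005726 on the plus strand (Gbp2), chr1:205541768-205541828 on the minus strand (Ifitm3), chr12:41330399-41330465 on the plus strand (Oas1a) and chr6:21941112-21941153 on the plus strand (Eif2ak2). The nearest match began 68 bases before the start in Irf7, 146 in Rsad2, 30 in Gbp2, 44 in Ifitm3, 35 in Oas1a and 16 in Eif2ak2. A match is a description of the letters and shows no binding.

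Genes of MHC class I presentation, which loads peptides onto the cell surface for T cells, lay on the same side. Of 12 measured, 4 were over 2-fold higher and 0 lower, beside 10.7% and 14.5% of all genes. By limma 3 rose, and the median log2 difference was 0.75. RT1-S3, a class I heavy chain of the rat, read 892 and 1428 in GFP+/- and 18.8 in NT. Its 2 other probe sets were also higher, at 177 and 126 against 13.3 and at 809 and 776 against 142. Class I genes are near-identical to each other, so these probe sets may read several of them. Psmb9, a subunit of the immunoproteasome, read 545 and 570 against 73.9 and rose by 2.91 (SE 0.38, adjusted p = 0.0157). Psme1, part of the proteasome activator, rose from 2844 to 7343 and 5831, though a second bright probe set of it read 1673 and 1798 against 1766. B2m, the light chain shared by class I molecules, was higher at 4347 and 3825 against 1851, and narrowly missed the limma threshold (adjusted p = 0.0546). Tap1, the peptide transporter, was 332 and 379 against 234 by its brightest probe set and 244 and 230 against 9.59 by another.

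Acute phase genes followed. Of 19 measured, 8 were over 2-fold higher and 0 lower, beside 10.7% and 14.5% of all genes. By limma 6 rose, and the median log2 difference was 0.83. Both GFP+/- arrays were above NT for 15 and below it for 0 of them. Lcn2 (lipocalin 2, a protein that withholds iron from bacteria) gave the largest difference of all bright genes, with 3746 and 3703 in GFP+/- and 14.0 in NT. The difference was 8.06 on the log2 scale (SE 0.19, adjusted p = 0.000186), and 6.96 with 16 added to each signal. Cp (ceruloplasmin, the copper oxidase) read 483 and 380 against 71.1 and rose by 2.59 (SE 0.26, adjusted p = 0.0109). Serping1, the inhibitor of the first complement component, read 299 and 184 against 40 and also rose, by 2.55. The probe set annotated as Crp also rose, but it is of a type that reads several related sequences, so its identity is uncertain and its values are not given. It is counted among the 8 higher and the 6 that rose. C1s, a complement protease outside the list, was among the 12 largest rises of bright genes, with 872 and 867 against 74.3. The members that rose on dim signals were C3, the central complement protein, with 330 and 165 against 5.29, and Cebpb, a factor that drives acute phase genes, with 99.2 and 167 against 3.71. A2m, a protease inhibitor and a classic acute phase protein of the rat, read 7700 and 5588 against 3507 without passing (adjusted p = 0.371).

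The inflammation list was made up of cytokines, chemokines and targets of NF-kappaB. It had 8 of 22 members over 2-fold higher and 1 lower, beside 10.7% and 14.5% of all genes, with a median of 0.35. Ccl2, a chemokine that draws monocytes, read 4256 and 2185 in GFP+/- and 133 in NT, and its second probe set read 432 and 303 against 86.4. The Ccl2 difference was 4.52 (SE 0.42, adjusted p = 0.0109). Icam1, an adhesion molecule for leukocytes, read 939 and 774 against 184 and rose by 2.21. Nfkbia, the inhibitor that NF-kappaB itself induces, read 662 and 753 against 183 and rose by 1.94. Nfkb1 was 673 and 480 against 281, over 2-fold higher without passing limma. Tnf, Il6 and Il1a, cytokine genes with dim signals, did not pass the 2-fold rule. The NF-kappaB site spelled GGGANTTCC was found in 2 of 13 matched promoters of the list (15.4%) and in 1.64% of all promoters. Of the 2 genes with the site, 1 was over 2-fold higher, as were 5 of those without it.

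**Figure D2:**
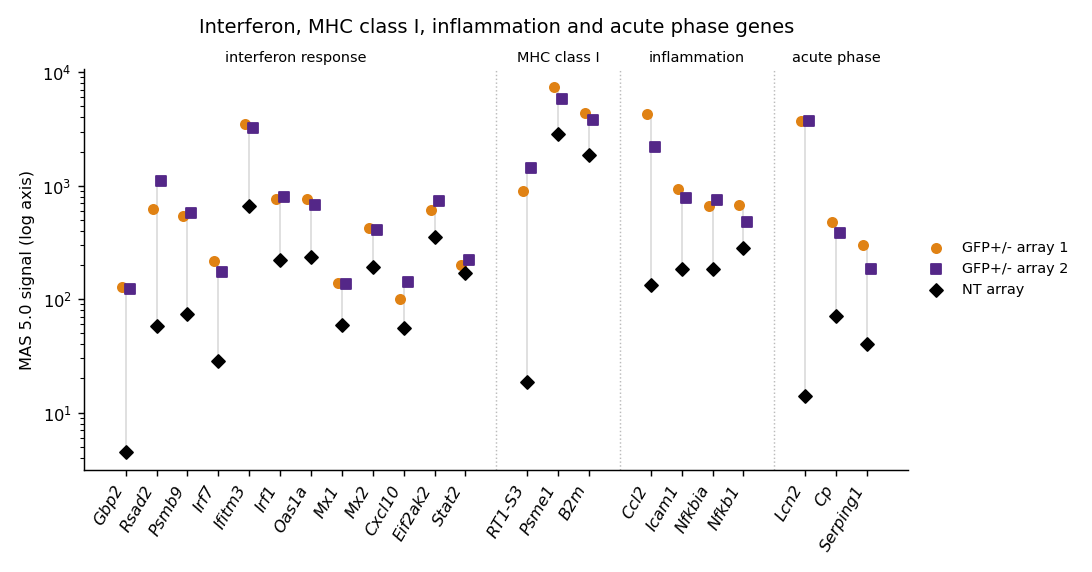
MAS 5.0 signals (log axis) of genes of interferon response, MHC class I presentation, inflammation and acute phase on the 2 GFP+/- arrays and the NT array, 1 point per array. The genes drawn are a selection. For each of them both GFP+/- arrays lie above NT, from Stat2 (201 and 221 against 170) to Lcn2 (3746 and 3703 against 14.0). On the log axis their GFP+/- arrays lie closer to each other than to NT. Among the members not drawn are Adar, below NT on both arrays, and Vcam1 and Serpina3n, with NT between the 2 arrays. Over the whole lists, both GFP+/- arrays lay above NT for 14 of 15 interferon and 9 of 12 MHC class I genes. They did so for 13 of 22 inflammation and 15 of 19 acute phase genes.

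Immediate early genes, which neurons and glia switch on within minutes of a stimulus, were higher in part. Of 24 measured, 8 were over 2-fold higher and 1 lower, beside 10.7% and 14.5% of all genes. The median log2 difference was 0.53. Fos read 1093 and 944 in GFP+/- and 287 in NT and rose by 1.82 (SE 0.22, adjusted p = 0.0149), and its 2 other bright probe sets were higher as well. Egr1, a zinc finger factor, rose from 2266 to 6615 and 7042. Zfp36, which shortens the life of cytokine mRNAs, was 292 and 476 against 158 and the nuclear receptor Nr4a1 was 339 and 307 against 144, both over 2-fold higher and neither past limma on its brightest probe set. Klf10, a target of TGF-beta, was the member that fell, with 291 and 272 against 675 (adjusted p = 0.0276). Atf3, a factor of the stress response, was 242 and 277 against 162 (adjusted p = 0.343), while Klf4 read 176 and 115 against 154. So the members ran in both directions and Dusp1, Arc and Klf6 stayed within 2-fold of NT.

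Other stress lists had few members past 2-fold. Among 14 heat shock genes, 3 were over 2-fold higher (21.4%) and 2 lower (14.3%), beside 10.7% and 14.5% of all genes. The median was -0.25. Hspa1a, the inducible HSP70, rose from 58.2 to 206 and 208 on a dim probe set, whereas its cochaperone Dnaja1 fell from 10494 to 4260 and 4114. The core of the heat shock element, spelled TTCNNGAA, was in 6 of 12 matched promoters of the list (50%) and in 8.77% of all promoters, and 1 gene with it and 1 without it were over 2-fold higher. Among 15 genes of endoplasmic reticulum stress 1 was higher: Trib3, a pseudokinase, with 102 and 115 against 12.8, while the chaperone Hspa5 was 3547 and 3307 against 2431 on its brightest probe set and 2673 and 2612 against 3630 on the next, neither passing. Hmox1, which breaks down heme, rose from 433 to 806 and 968, and the peroxidase Gpx1 from 1577 to 4846 and 3796. They were the 2 of 17 oxidative stress genes over 2-fold higher (11.8%, near the 10.7% of all genes). Of 6 p53 targets measured, 1 was over 2-fold higher and 1 lower, both GFP+/- arrays lay above NT for 5, and the median was 0.72, or 0.34 with 16 added to each signal. Gadd45a, a growth arrest gene that is also on the immediate early list, was the higher one at 354 and 665 against 171, without passing (adjusted p = 0.0978). Ccng1, a cyclin induced by p53, fell from 2194 to 532 and 516, while Mdm2, another p53 target, read 157 and 156 against 153.

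**Figure D3:**
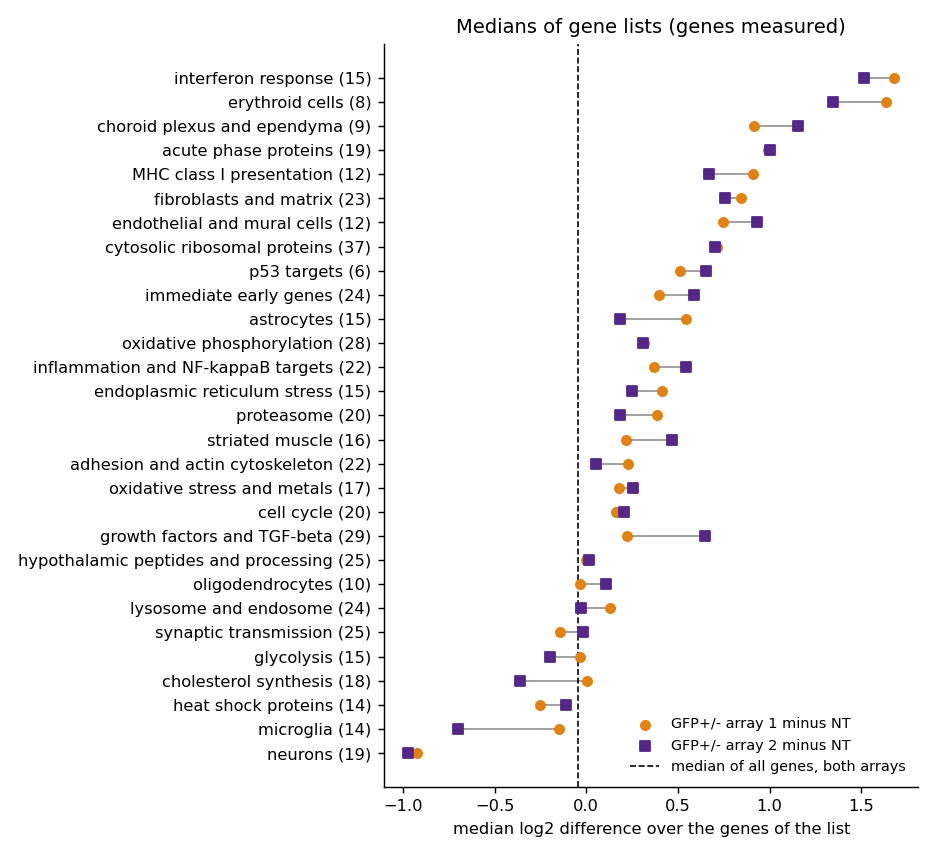
Median log2 difference over the measured genes of each of the 29 lists, for GFP+/- array 1 (circles) and array 2 (squares), each minus the same NT array; the dashed line is the median of all genes (-0.05). Interferon response, erythroid, choroid plexus, acute phase, MHC class I, fibroblast, mural and ribosomal lists lie at the right on both arrays and neurons (-0.93 and -0.97) at the far left.

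Markers of neurons lay on the other side. Of 19 measured, 9 were over 2-fold lower in GFP+/- and 0 higher, beside 14.5% and 10.7% of all genes. By limma 8 fell, and the median log2 difference was -0.95. Both GFP+/- arrays lay below NT for 12 and above it for 0. In bulk RNA, fewer neurons and less of a transcript per neuron cannot be told apart. Nefm, the middle neurofilament subunit, read 309 and 331 in GFP+/- and 1486 in NT and fell by 2.22 (SE 0.26, adjusted p = 0.0140). Nefl, the light subunit, read 168 and 161 against 742 and fell by 2.17, and Ina, another neuronal intermediate filament, fell from 2047 to 739 and 623. Elavl4, an RNA-binding protein of postmitotic neurons, fell from 4455 to 1881 and 1741, and its second probe set from 2654 to 1297 and 1217. L1cam, the axonal adhesion molecule, fell from 1303 to 506 and 581. Snap25, a SNARE protein of synaptic vesicle fusion, fell from 402 to 73.2 and 71.0 on a dim probe set.

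Some bright neuronal transcripts differed little. Stmn1, which destabilizes microtubules, read 15407 and 20172 against 16664, and Stx1a, another SNARE protein, 1980 and 2674 against 2003. Gap43, a growth cone protein, was 6008 and 6802 against 11030, lower on both arrays but short of 2-fold (adjusted p = 0.101). Nefh, the heavy neurofilament subunit, was dim in GFP+/- and NT alike at 46.1, 85.0 and 75.1.

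Several neuronal genes gave opposite answers from different probe sets. Map2, a microtubule protein of dendrites, fell on its brightest probe set from 9216 to 3389 and 2360, but another bright set rose from 53.8 to 333 and 447. Mapt (tau) read 7321 and 8967 against 10041 on the brightest set, fell from 7836 to 3009 and 3130 on another and rose from 390 to 1200 and 1493 on the last. Ina was higher on its other bright set, at 836 and 765 against 438. Uchl1, a deubiquitinase abundant in neurons, fell on all 3 of its probe sets, from 5111 to 1360 and 1607, from 3613 to 742 and 698 and from 1321 to 129 and 141. Taking the mean over all probe sets of a gene in place of the brightest moved the neuronal median from -0.95 to -0.36. Over the array, 503 genes had several bright probe sets. All probe sets lay on the same side of 0 for 312 of them, while 166 had probe sets over 2-fold apart and 7 had one over 2-fold higher and another over 2-fold lower.

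**Figure D4:**
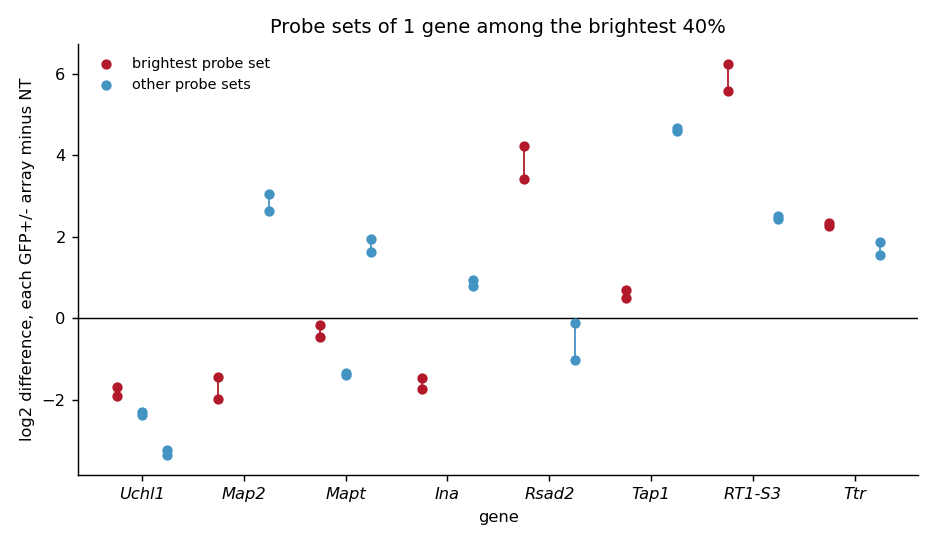
Log2 difference of each GFP+/- array minus NT for the bright probe sets of 8 genes, with the 2 arrays of a probe set joined by a line. The probe sets of Uchl1, Tap1, RT1-S3 and Ttr lie on 1 side of 0 within a gene, and those of Map2, Mapt, Ina and Rsad2 on both.

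Genes of synaptic transmission did not shift as a list, with a median of -0.06 against -0.05 over all genes. Of 25 measured, 7 were over 2-fold lower (28% beside 14.5% of all genes) and 2 higher (8% beside 10.7%), and 2 of the 10 bright members were lower. Gria2, a subunit of AMPA-type glutamate receptors, read 138 and 102 in GFP+/- and 1029 in NT and fell by 3.11 (SE 0.32, adjusted p = 0.0109). A dim second probe set of it read 61.7 and 67.8 against 77.3. Gad1, which makes GABA, fell from 3830 to 1328 and 1804, while Slc32a1, the vesicular GABA transporter, was 1435 and 1622 against 1456. Outside the list, 3 membrane proteins of neurons were among the 12 largest falls of bright genes. These were Gabra5, a GABA-A receptor subunit, with 104 and 124 against 826, Slc12a5, the chloride exporter KCC2, with 141 and 142 against 1091, and Cnr1, the cannabinoid receptor, with 114 and 205 against 1416.

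Of 25 genes of hypothalamic peptides and their processing, 5 were over 2-fold lower (20%) and 2 higher (8%), near the shares of 14.5% and 10.7% over all genes, with a median of 0.09. Scg2, a granin of dense-core vesicles, read 184 and 260 in GFP+/- and 1601 in NT and fell by 2.87 (SE 0.38, adjusted p = 0.0167). Chgb, another granin, fell from 2345 to 765 and 907. The precursors of melanin-concentrating hormone (Pmch, 373 and 208 against 893), tachykinins (Tac1, 1116 and 1184 against 2367) and neuropeptide Y (Npy, 185 and 187 against 373) were over 2-fold lower without passing limma. Pomc, the precursor of melanocortins, rose from 84.3 to 269 and 303. Sst and Avp, the somatostatin and vasopressin precursors, were within 2-fold of NT, as was the processing enzyme Cpe at 14465 and 19388 against 17342. Trh, whose promoter drove the plasmid, differed by 0.15 (SE 0.36, adjusted p = 0.860), and its second probe set read 86.8 and 51.0 against 122.

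**Figure D5:**
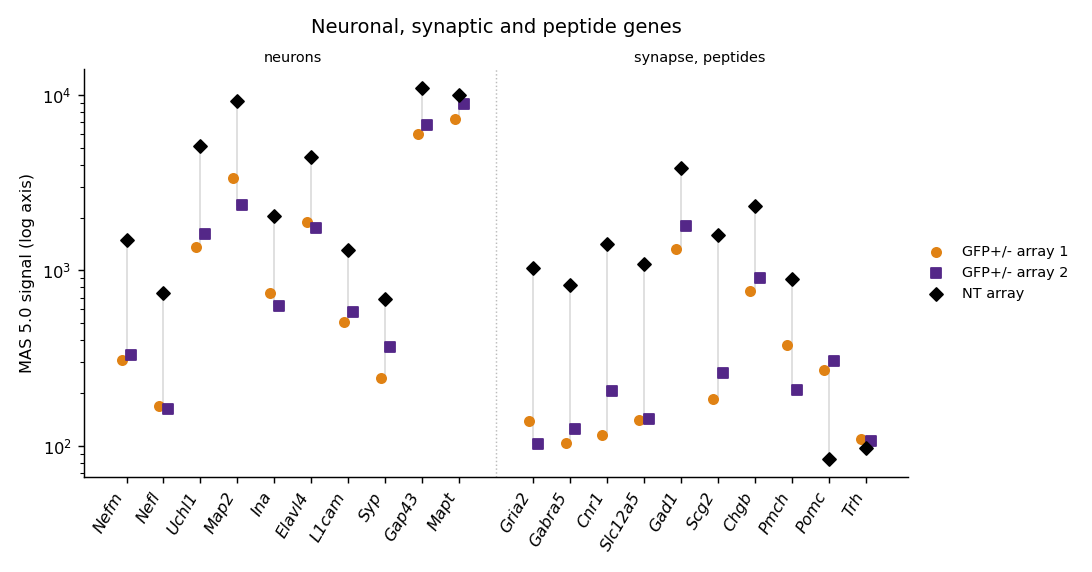
MAS 5.0 signals (log axis) of neuronal markers and of synaptic and peptide genes on the 2 GFP+/- arrays and the NT array, read from the brightest probe set of a gene. The genes drawn are a selection. NT lies above both GFP+/- arrays for each of them except Pomc (269 and 303 against 84.3) and Trh (109 and 106 against 96.6). Among the members not drawn for which NT did not lie above both arrays are Stmn1, Stx1a, Slc32a1, Sst and Cpe. Over the whole lists, NT lay above both arrays for 12 of 19 neuronal, 10 of 25 synaptic and 9 of 25 peptide genes.

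Lists of fibroblast, mural, choroid plexus and erythroid markers held genes with large differences. The median log2 difference was 0.74 over the 12 endothelial and mural markers and 0.75 over the 23 fibroblast and matrix markers. It was 1.03 over the 9 choroid plexus and ependymal markers and 1.49 over the 8 erythroid markers. Members of each list differed widely, as given below. These markers moved together with the falls of the neuronal markers, and their part in them was not tested.

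Of the 12 endothelial and mural markers, 6 were over 2-fold higher and 1 lower, beside 10.7% and 14.5% of all genes. Those higher were the contractile genes Acta2, Actg2, Tpm2, Tagln and Cnn1 and the endothelial transporter gene Abcb1a, the last on a dim probe set at 33.0 and 46.7 against 10.7. Acta2, smooth muscle actin, read 6561 and 9059 in GFP+/- and 441 in NT and rose by 4.13 (SE 0.49, adjusted p = 0.0143). Actg2, a close paralog that may share signal with it, rose from 161 to 1534 and 1194, and the tropomyosin Tpm2 from 92.6 to 524 and 482. Of the endothelial genes, Pecam1 was 108 and 107 against 114, and Vwf, the one lower, 23.7 and 26.4 against 68.3, both dim. The contractile genes Myh11, at 71.3 and 70.5 against 99.6, and Des, at 14.6 and 15.6 against 15.9, were dim and not higher. The 2 dim probe sets of Acta2 disagreed, at 160 and 123 against 90.8 and at 3.00 and 2.91 against 16.1.

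Fibroblast and matrix genes had 8 of 23 members over 2-fold higher and 2 lower, beside 10.7% and 14.5% of all genes. Their median was 0.75. Lgals1, a secreted lectin, rose from 892 to 7589 and 4488, Igfbp5, which binds insulin-like growth factors, from 80.9 to 296 and 284, and Postn, a matrix protein, from 740 to 2182 and 1983. The collagen I genes were higher without passing limma, Col1a1 at 13508 and 13098 against 3468 (adjusted p = 0.0596) and Col1a2 at 9100 and 10016 against 3834. The other bright probe sets of Col1a1 differed less, at 7115 and 8743 against 3735 and at 1748 and 1880 against 1369. Col3a1, a collagen that accompanies them in loose tissue, was not higher at 987 and 995 against 1318, and Lum and Dcn, small matrix proteoglycans, were over 2-fold lower on dim signals.

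Of the choroid plexus and ependymal markers 5 of 9 were over 2-fold higher and 0 lower, beside 10.7% and 14.5% of all genes. Igf2 was short of 2-fold, at 1413 and 1233 against 781. Also within 2-fold, on dim probe sets, were Kl (75.8 and 45.9 against 91.0), Kcnj13 (3.70 and 6.45 against 5.43) and Aqp1 (116 and 109 against 80.2). Ttr, the thyroid hormone carrier made by choroid plexus, read 18147 and 17266 in GFP+/- and 3587 in NT and rose by 2.30 (SE 0.35, adjusted p = 0.0226). Its second probe set was higher too, at 3271 and 2633 against 898. Foxj1, the master factor of motile cilia, rose on a dim probe set from 19.6 to 90.6 and 108. Cp, given above, stands on this list as well.

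Among the 8 erythroid markers, 5 were over 2-fold higher and 0 lower, beside 10.7% and 14.5% of all genes. Both GFP+/- arrays lay above NT for 5 and below it for 2. Those 2, on dim probe sets, were Epor, at 14.8 and 15.4 against 25.2, and Car2, at 149 and 106 against 196. Hbb read 8361 and 5760 in GFP+/- and 254 in NT, and Hbb-b1 6265 and 4217 against 208, with log2 differences of 4.77 and 4.62 (SE 0.28 for both, adjusted p = 0.00514 for both). The beta globin genes are near-identical, so these probe sets are not independent. Alas2, the erythroid enzyme that begins heme synthesis, was 308 and 231 against 127, and Slc4a1, the anion exchanger of red cells, 378 and 419 against 414. Few astrocyte and oligodendrocyte markers passed 2-fold. The astrocyte median was 0.37, with 0.54 and 0.18 on the 2 GFP+/- arrays, and -0.06 over its 12 bright members. The oligodendrocyte median was 0.01. Of 15 astrocyte markers, 1 was over 2-fold higher (Mt3, a brain metallothionein, 3498 and 3497 against 1029) and 1 lower, and of 10 oligodendrocyte markers 0 were higher and 1 lower. Microglial markers were mostly dim, with 5 of 14 under a signal of 50 in NT. Of the 14, 6 were over 2-fold lower (42.9%, beside 14.5% of all genes) and 1 higher (7.14%, beside 10.7%). The bright one that fell was Spp1 (osteopontin), from 1089 to 258 and 261. Ctss, a cathepsin of microglia and macrophages, fell from 903 to 95.2 and 96.8, and among the lysosomal genes Lipa, the acid lipase, fell from 1068 to 328 and 377, while Lamp2, a lysosomal membrane protein, rose from 692 to 1366 and 1418 and Grn (progranulin) from 4717 to 11745 and 11250. The other bright probe sets of Lamp2 and Grn stayed within 2-fold of NT. In all, 3 of 24 lysosomal genes were over 2-fold higher (12.5%, beside 10.7% of all genes) and 6 lower (25%, beside 14.5%).

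Genes of lipid synthesis held 4 of 18 members over 2-fold lower (22.2%, beside 14.5% of all genes) and 0 higher. Their median was -0.20, against -0.05 over all genes. Idi1, which isomerizes the building block of isoprenoids, read 216 and 200 in GFP+/- and 2301 in NT and fell by 3.47 (SE 0.41, adjusted p = 0.0141). Scd, which desaturates fatty acids, fell from 623 to 128 and 116, and Fasn, fatty acid synthase, from 1414 to 522 and 506, though a second bright probe set of Fasn read 183 and 212 against 191. Cyp51, a demethylase of the cholesterol pathway, was 8536 and 7445 against 4508, within 2-fold. Fdps, which makes farnesyl diphosphate, gave opposite answers, with 3433 and 3423 against 1849 on its brightest probe set and 799 and 517 against 1421 on another, neither passing.

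Genes of the cytosolic ribosome were higher as a group of bright probe sets. Of 37 measured, 9 were over 2-fold higher and 0 lower, 7 rose by limma, and both GFP+/- arrays lay above NT for 30. Rpl41 rose from 1847 to 5507 and 5901 and Rpl22 from 11711 to 30585 and 39157. The median log2 difference was 0.73. Under quantile normalization it was 0.33, with 6 higher and 1 lower, so its size depends on how the arrays were scaled. Ribosomal protein genes have many processed pseudogenes, which may share signal with them. Genes of oxidative phosphorylation (median 0.35) and the proteasome (0.30) held 3 of 28 and 1 of 20 members over 2-fold higher, and 2 of 28 and 2 of 20 lower. Glycolysis held 0 of 15 higher and 2 lower, and the cell cycle list 3 of 20 higher and 1 lower. Growth factors held 6 of 29 higher and 3 lower, and adhesion and actin genes 4 of 22 higher and 2 lower. Striated muscle genes held 5 of 16 higher and 0 lower, 4 of these 5 on dim probe sets. Over all genes the shares were 10.7% higher and 14.5% lower.

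Among the largest changes of bright genes were some that no list held. Mmp9, a protease that cuts matrix, rose from 46.2 to 822 and 958. Cyba, the membrane subunit of the phagocyte oxidase, rose from 42.1 to 669 and 576. Sf3b1, a splicing factor, rose from 11.1 to 351 and 184. Of the 12 largest rises 6 had an NT signal under 50, where the fold rests on a value near background. Of the 12 largest falls 3 had both GFP+/- signals under 100. Brightness was the mean over all 5 arrays, so a gene could count as bright mainly through its NT signal or mainly through the transfected arrays. Gbp2 passed with 612 on the first GFP+ array, and Nefh with 1224 and 821 on the GFP+ arrays. The choice of bright genes was therefore not independent of the differences given for them. Igf1 (insulin-like growth factor 1), which is on the growth factor list, gave the largest fall, with 56.1 and 40.4 in GFP+/- and 1045 in NT. Its difference was -4.46 (SE 0.62, adjusted p = 0.0181), while its 4 other probe sets were all dim and ran from -1.87 to 0.24. Ppp1cb, a catalytic subunit of protein phosphatase 1, fell on both of its probe sets, from 4558 to 388 and 393 and from 2405 to 790 and 689. The ubiquitin-conjugating enzymes Ube2e3 (994 to 111 and 132) and Ube2d2 (691 to 82.5 and 93.2) and the arginyltransferase Ate1 (658 to 79.9 and 102) fell as well.

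The sorted GFP+ cells, which were compared with the same NT array, are set beside these values as a description. Gbp2 read 612 and 161 on the GFP+ arrays, Rsad2 3931 and 1483, Irf7 506 and 228 and Cxcl10 829 and 262, so these 4 interferon genes lay above NT on every transfected array, and the 2 GFP+ arrays lay further apart than the 2 GFP+/- arrays. Lcn2 was alike at 3507 and 3557. Acta2 read 1053 and 2375 and Ttr 2961 and 5060, below their GFP+/- signals. The median log2 difference of GFP+ minus NT was -0.63 over the neuronal list and 1.53 over the erythroid list, against 0.09 over all genes. It was -0.04 over the fibroblast and matrix list. Gria2 read 137 and 142 in GFP+ and Nefm 580 and 436, below NT, while Nefh read 1224 and 821, above NT. Txnip, an inhibitor of thioredoxin, read 1287 and 1219 in GFP+ but 218 and 159 in GFP+/- and 179 in NT, and Klf4 749 and 581, both genes for which GFP+/- lay near NT.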

How the data were processed

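The deposited values are signal intensities from Affymetrix rat genome arrays, made by the authors with MAS 5.0 and scaled per array. The methods name a mean of 125, whereas the 2% trimmed mean of the deposited intensities was 501 on each array. No detection calls were used. Of 8799 probe sets, 59 controls were left out of the tests, and 8740 were analysed: 7006 carry 1 gene symbol, 308 several and 1426 none, and none of the last 2 kinds was named. Symbols were updated through RefSeq (GRCr8). Signals under 1 were set to 1 and taken to log2. limma 3.58.1 (R 4.3.3; lmFit, eBayes with an intensity trend) was fitted over the 5 arrays with 1 mean per population, with Benjamini-Hochberg adjustment over the 8740 probe sets and a threshold of 0.05. It was tested on simulated data in which the NT array was given the same spread as the others. The simulation therefore could not test that assumption. Lists get counts and medians, no set test. Members and lists were chosen with earlier results of these data known. Named genes are the 12 largest rises and falls of bright genes, past limma first, up to 4 bright members per list and direction, and genes the study checked by RT-PCR. Others named to account for a list were chosen after their values were seen. The number of arrays limits the precision. Alternatives were the scaling, an offset of 16, the brightest 40%, a threshold of 1.5-fold, averaging before log2, the mean over probe sets, no trend, fewer populations and leaving out single arrays.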

Additional observations from a re-analysis of the deposited data

How the results depend on the processing

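The 2362 probe sets over 2-fold (952 higher, 1410 lower) became 888 (432 and 456) among the brightest 40% of probe sets alone, where fewer were tested, and 4044 (1704 and 2340) at 1.5-fold. Other scalings, 16 added and averaging before log2 kept the count within 1.5 times, and a single GFP+/- array gave 2518 or 2651. The 807 limma calls became 2 without the intensity trend, 386 with only the GFP+/- and NT arrays, 323 or 333 without a GFP+ array and 1 without either GFP+/- array. The range over left-out arrays was 1 to 333, and these fits have fewer degrees of freedom. Quantile normalization moved the median of all probe sets from -0.09 to 0.02, and equal medians moved it by about the same, to 0.02. Of 195 genes named by rule, 76 passed limma, and 75 of these lost the call without the trend or without either GFP+/- array. None of the 76 turned its direction in these alternatives, while up to 10 genes that had not passed changed sign. Of 29 lists, 23 had a median above that of all genes, and 20 to 25 did in the alternatives. The cause of these changes was not tested. No paired analysis was possible because the single NT array carries no replicate number that the GFP+/- arrays share.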
